A study of Mus musculus with 6 samples.

Results

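The phagocyte NADPH oxidase was followed by 7 of its genes through blood neutrophils sorted by surface Ly6C: Cybb and Cyba of the membrane part, Ncf1 and Ncf4 of the cytosolic part, and Rac1, Rac2 and Rap1a, the small GTPases. The genes were chosen by name as parts of the oxidase and are 7 of 35853 genes to which transcripts were assigned, and all 7 entered the test. The Ly6C-high and the Ly6C-low group had 3 libraries each, both from blood of WT BALB/C mice. The mice were bled 4 weeks after orthotopic implantation of 4T1, a mouse mammary carcinoma line. All cells had been sorted as Ly6G+ neutrophils, Ly6G being a surface protein of mouse neutrophils, and all mice carried a tumour. Whether libraries of a group stem from different animals is not stated, so p-values here reflect only the spread among libraries, possibly a technical one.

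The oxidase makes superoxide, the first of the reactive oxygen species with which a neutrophil kills microbes and signals to other cells. In a resting cell its flavocytochrome, built from Cybb and Cyba proteins, sits in membranes, while the cytosolic proteins and a Rac GTPase wait apart. On stimulation the cytosolic proteins are phosphorylated, bind the flavocytochrome together with Rac, and electrons flow from NADPH across the membrane to oxygen. Loss of the catalytic or organising subunits causes chronic granulomatous disease in humans, and oxidase activity is one of the means by which neutrophils of tumour-bearing mice suppress T cells.

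The libraries held between 17192372 and 20973623 estimated counts, and the members drew between 2136 (Rap1a) and 47945 (Rac2) of them per library. All 8 neutrophil markers checked were present, with Ly6g at 632.9 to 1282.3 TPM (a transcript level per length, on one total in each library). Their summed level was 366122.4 to 371394 TPM in the Ly6C-high and 337430.6 to 353961.5 TPM in the Ly6C-low libraries. Most of that sum was S100a8 (136323.5 to 150850.8 TPM) and S100a9 (168401.2 to 199913.3 TPM). In TPM, Ly6g, Mmp8 and S100a9 were higher and Csf3r was lower in every Ly6C-high library, while the groups overlapped for S100a8, Cxcr2, Mmp9 and Retnlg. Ly6C-low replicate 3 stood apart, at 38.02 on the first principal component, where the other 5 libraries lay between -19.65 and 3.91. Members are given below in TPM where genes are compared with each other, and in CPM (counts scaled to library size and by TMM, which sets the bulk of genes equal between libraries) where the groups are compared. On the TPM scale the median gene of the 11406 tested lay at 0.93 times its Ly6C-low level in the Ly6C-high libraries, so a TPM ratio of 0.93 is no change relative to other genes.

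All 7 oxidase genes were abundant. Rac2, the Rac GTPase of blood cells, was the highest, at 1299.3 ± 125.7 TPM (Ly6C-high) and 1196.4 ± 132.4 TPM (Ly6C-low; mean ± SD of 3 libraries here and below), and ranked 75th of all genes by its mean over the 6 libraries. Cyba, which encodes the small p22phox subunit that stabilises the catalytic one, followed at 754.8 ± 6.60 TPM (Ly6C-high) and 793.6 ± 13.9 TPM (Ly6C-low). Ncf4, which encodes p40phox, a subunit that binds phosphatidylinositol 3-phosphate on the phagosome, came next at 601.9 ± 39.8 TPM (Ly6C-high) and 630.3 ± 38.2 TPM (Ly6C-low). Rac1, the widely expressed Rac GTPase, had 509.6 ± 11.0 TPM (Ly6C-high) and 523.0 ± 59.9 TPM (Ly6C-low). Cybb, the catalytic gp91phox (NOX2) subunit, had 500.0 ± 85.1 TPM (Ly6C-high) and 410.7 ± 89.4 TPM (Ly6C-low). Ncf1, which encodes the organiser p47phox, had 427.3 ± 43.1 TPM (Ly6C-high) and 368.0 ± 26.3 TPM (Ly6C-low). Rap1a, a Ras-like GTPase found bound to the flavocytochrome in human neutrophils, was the lowest member, at 124.1 ± 7.64 TPM (Ly6C-high) and 119.9 ± 5.87 TPM (Ly6C-low), and ranked 828th. On this scale, over the 6 libraries, Rac2 did not overlap with Cyba, Cyba did not overlap with Ncf4, and Rap1a overlapped with no other member. The range of Ncf4 (556.8 to 674.3 TPM) met those of Rac1 (453.8 to 558.4 TPM) and Cybb (321.1 to 566.3 TPM). Rac1, Cybb and Ncf1 overlapped one another.

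The order of the levels depended in part on short annotated transcripts, since TPM divides by length. For Rac2, a fragment of 254 bases carried 25.6% to 31.2% of the gene's TPM on 0.906% to 1.25% of its counts. For Rac1, a transcript of 585 bases with no annotated protein carried 49.5% to 55.2% of the TPM on 13.7% to 16.8% of the counts. With all counts of a gene set over the length of its main transcript, Rac2 averaged 849.7 TPM over the 6 libraries, Cyba 772.0, Ncf4 527.3, Cybb 422.6, Ncf1 391.2, Rac1 295.5 and Rap1a 59.6. Rac1 thus moved from the fourth to the sixth place, below both Cybb and Ncf1, while the first 3 places and the last were the same in both orders of the means. On that scale Rac2 (721.1 to 931.4 TPM) and Cyba (747.5 to 803.3 TPM) overlapped over the 6 libraries, and Cyba was the higher of the pair in Ly6C-low replicate 3, at 774.9 TPM against 721.1 TPM for Rac2.

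**Figure D1:**
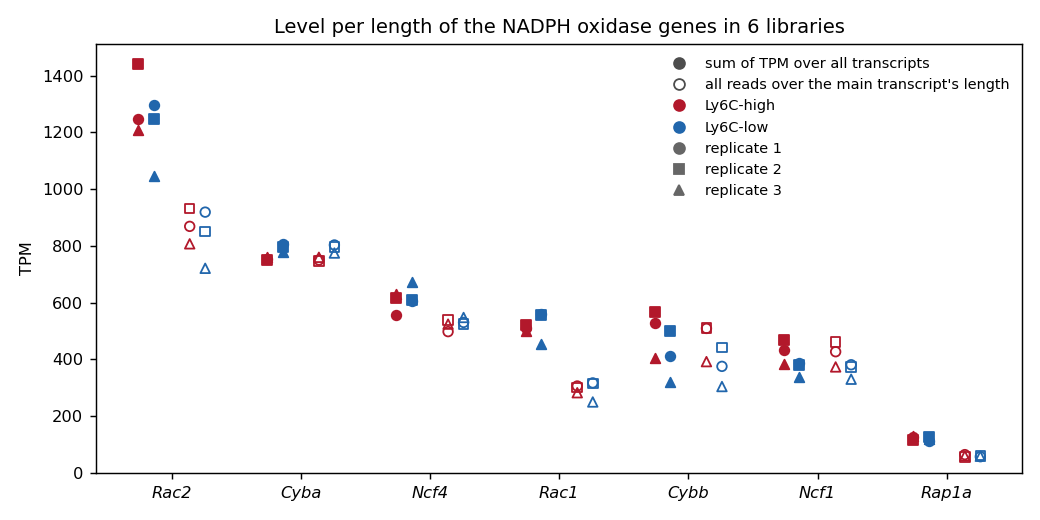
TPM of each NADPH oxidase gene (vertical axis) in the 3 Ly6C-high (red) and 3 Ly6C-low (blue) libraries, with replicates by symbol. Filled symbols are the sum over all transcripts and open symbols set all reads over the length of the main transcript: Rac2 has the highest mean on both scales, Cyba is above it in Ly6C-low replicate 3 on the second, and Rac1 moves below Cybb and Ncf1 on the second.

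Between the sorted groups, the 2 members with the largest differences were Cybb and Ncf1, both higher in the Ly6C-high libraries, and neither passed the test over all genes. All 7 members had a log2 fold change above 0, where 49.2% of all genes did, with a median of 0.13, against -0.004 for all genes tested. This lean was not particular to the oxidase, since the 8 neutrophil markers had a median of 0.22. Among those markers Csf3r lay below 0, at -0.16, and edgeR called 0 of the 8. With edgeR's quasi-likelihood test, 0 of the 7 passed an adjusted p of 0.05 (0.0351% of all genes did), and the adjusted p of the members lay between 0.275 and 0.951. DESeq2 and limma voom also called 0 of the 7. At an unadjusted p under 0.05 there were 2 members, Cybb and Ncf1, both higher, where 6.92% of all genes were higher and 14.3% differed in either direction at that level. Of the intervals, 6 of the 7 members' 95% intervals lay inside a 1.5-fold change in either direction, and that of Cybb inside 2-fold. In bulk RNA of sorted cells, fewer cells with a transcript and less of it per cell cannot be told apart.

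**Figure D2:**
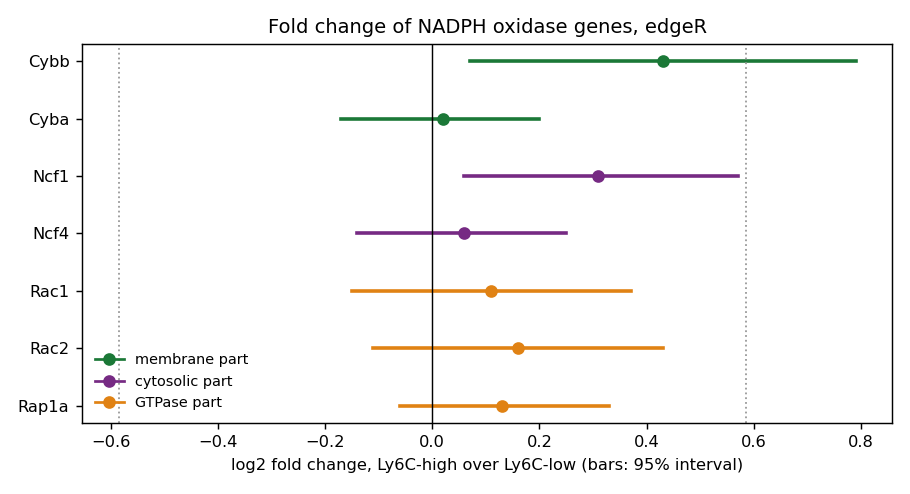
Log2 fold change of each NADPH oxidase gene, Ly6C-high over Ly6C-low, from edgeR, with 95% intervals as bars and dotted lines at a 1.5-fold change. The points run from 0.02 for Cyba to 0.43 for Cybb, and the intervals of Cybb and Ncf1 alone lie above 0, before adjustment over all genes.

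In the membrane part, the 2 partners of the flavocytochrome behaved differently. Cybb, on chromosome X, measured 2278.1, 2240.8 and 1713.3 CPM in Ly6C-high replicates 1, 2 and 3, against 1576.3, 1830.2 and 1222.1 CPM in Ly6C-low replicates 1, 2 and 3. Both groups had their lowest value in replicate 3, and the groups overlapped, since Ly6C-low replicate 2 lay above Ly6C-high replicate 3. The fold change was 1.35 (95% interval 1.05 to 1.72), or 0.43 on the log2 scale (SE 0.16, edgeR adjusted p 0.285). Without Ly6C-low replicate 3 it was 0.29 (edgeR adjusted p 0.43), and leaving out each library in turn gave 0.29 to 0.57. Cyba, on chromosome 8, measured 373.6, 366.5 and 367.5 CPM in the Ly6C-high libraries, against 378.1, 367.7 and 349.3 CPM in the Ly6C-low libraries. The 6 values lay within a narrow band and the groups overlapped, with a log2 fold change of 0.02 (95% interval -0.17 to 0.20, edgeR adjusted p 0.951), whose sign turned to -0.01 without Ly6C-low replicate 3 and to -0.09 with scaling by library size alone. On the TPM scale Cyba measured 752.2, 749.9 and 762.3 TPM in the Ly6C-high replicates, against 805.2, 797.3 and 778.2 TPM in the Ly6C-low ones, so every Ly6C-high library lay below every Ly6C-low one, as in 18.1% of all genes. The ratio of these means was 0.951, against the 0.93 of the median gene. Over all 6 libraries Cyba had a coefficient of variation of 2.67%, against 22.3% for Cybb and a median of 9.28% over the 2977 genes with a mean of at least 50 CPM.

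The ratio of the partners therefore varied mainly with Cybb. Cyba had 1.42, 1.32 and 1.89 times the TPM of Cybb in Ly6C-high replicates 1, 2 and 3, against 1.96, 1.59 and 2.42 times in Ly6C-low replicates 1, 2 and 3. Cyba was thus above Cybb in all 6 libraries, and the ratio averaged 1.54 ± 0.30 in the Ly6C-high and 1.99 ± 0.42 in the Ly6C-low libraries, with overlap between the groups.

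Promoter sequences were at hand for Cybb, Cyba and Ncf1 and are shown because these genes span the range from the most to the least different member. They are the 250 bases before the annotated start, 5′ to 3′ on the minus strand, from RefSeq on build GRCm38.p6, with matches to the motifs below in capitals.
Cybb promoter, chrX:9469325-9469574: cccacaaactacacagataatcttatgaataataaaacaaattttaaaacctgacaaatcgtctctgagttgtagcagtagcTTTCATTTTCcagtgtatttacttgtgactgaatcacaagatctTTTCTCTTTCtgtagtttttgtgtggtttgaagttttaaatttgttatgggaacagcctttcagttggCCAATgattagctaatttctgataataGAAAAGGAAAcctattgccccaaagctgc
Ncf1 promoter, chr5:134229626-134229875: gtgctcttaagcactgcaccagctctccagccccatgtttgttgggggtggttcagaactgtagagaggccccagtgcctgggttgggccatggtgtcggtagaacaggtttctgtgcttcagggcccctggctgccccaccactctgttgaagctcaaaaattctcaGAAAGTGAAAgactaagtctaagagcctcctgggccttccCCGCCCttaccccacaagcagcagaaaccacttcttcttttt
Cyba promoter, chr8:122432941-122433190: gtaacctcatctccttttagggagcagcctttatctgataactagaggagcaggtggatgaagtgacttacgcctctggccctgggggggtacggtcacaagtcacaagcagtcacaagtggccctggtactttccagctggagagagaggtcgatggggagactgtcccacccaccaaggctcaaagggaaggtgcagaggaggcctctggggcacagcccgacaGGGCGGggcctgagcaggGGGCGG

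The 5 motifs were searched on both strands in these windows and in 32536 promoter windows of the same length, each before an annotated start. The core of the interferon response element, TTTC repeated after any 2 bases, occurred 3 times before Cybb, with the first base at positions -168, -124 and -29 from the start, and 1 time before Ncf1, at -82, while 3.0% of all windows held at least 1 match and the Cyba window held 0. The GC box letters GGGCGG occurred 2 times before Cyba, at -24 and -6, and 1 time before Ncf1, at -42, and 33.0% of all windows held them. The CCAAT box occurred 1 time, before Cybb at -56, and 33.8% of all windows held it. The letters GAGGAA, one form of the site bound by PU.1, and TATAA were in none of the 3 windows, where 23.4% and 22.7% of all windows held them. Shorter or other forms of the PU.1 and ETS site were not searched, so their absence is not shown. Matches overlapped no other motif and describe letters only.

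In the cytosolic part, Ncf1 differed more than Ncf4. Ncf1, on chromosome 5, measured 1050.3, 1110.9 and 896.4 CPM in Ly6C-high replicates 1, 2 and 3, against 880.2, 851.1 and 729.3 CPM in Ly6C-low replicates 1, 2 and 3. It was the only member whose groups did not overlap in CPM, with Ly6C-high replicate 3 just above Ly6C-low replicate 1, and 10.3% of all genes had every Ly6C-high above every Ly6C-low library. Its fold change was 1.24 (95% interval 1.04 to 1.48), or 0.31 on the log2 scale (SE 0.12, edgeR adjusted p 0.275), between 0.24 and 0.40 with each library left out in turn. On the TPM scale its groups overlapped. Ncf4, on chromosome 15, measured 603.4, 640.1 and 619.5 CPM in the Ly6C-high libraries, against 604.6, 588.9 and 597.5 CPM in the Ly6C-low libraries. The groups overlapped in a narrow range, with a coefficient of variation of 3.00% over the 6 libraries, a log2 fold change of 0.06 (95% interval -0.14 to 0.25, edgeR adjusted p 0.812) and a sign that turned to -0.05 with scaling by library size alone.

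Ncf4 had more transcripts per length than Ncf1 in every library. The ratio of their TPM was 1.29, 1.32 and 1.65 in Ly6C-high replicates 1, 2 and 3, against 1.57, 1.60 and 2.00 in Ly6C-low replicates 1, 2 and 3, and the groups overlapped. As with the membrane pair, the ratio was highest in replicate 3 of each group, where Cybb and Ncf1 were both lowest. Part of the TPM of Ncf4 lay in 4 transcripts with a retained intron, of which the 336-base one ranged from 21.9 to 65.6 TPM and was highest in replicate 3 of both groups, while the full-length coding transcript of Ncf4 kept to 464.0 to 498.6 TPM.

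Nearly all Ncf1 reads went to 1 coding transcript. It held 95.3% to 97.6% of the counts of the gene, against 1.28% to 3.22% for a longer form whose protein-coding sequence gains 42 bases in frame, shown because of its change inside the coding sequence. The added bases are in capitals, with 15 bases on each side.
Ncf1 longer form, minus strand of chr5:134221988-134222029 (GRCm38) for the capitals: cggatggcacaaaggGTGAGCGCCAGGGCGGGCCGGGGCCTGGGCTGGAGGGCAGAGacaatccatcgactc

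The longer form of Ncf1 had 8.03, 13.7 and 6.07 TPM in Ly6C-high replicates 1, 2 and 3, against 5.08, 11.8 and 4.14 TPM in Ly6C-low replicates 1, 2 and 3, and was highest in replicate 2 of both groups. Ncf1 overlaps Gtf2ird2, a gene on the opposite strand, over 408 bases, and shares 8.84% of its 31-base words with it. Gtf2ird2 was listed at 126.6 to 274.7 counts, against 13751 to 20832 counts for Ncf1. The library kit marks strand, but whether the quantification used it is not given, so reads of the pair may have been split.

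**Figure D3:**
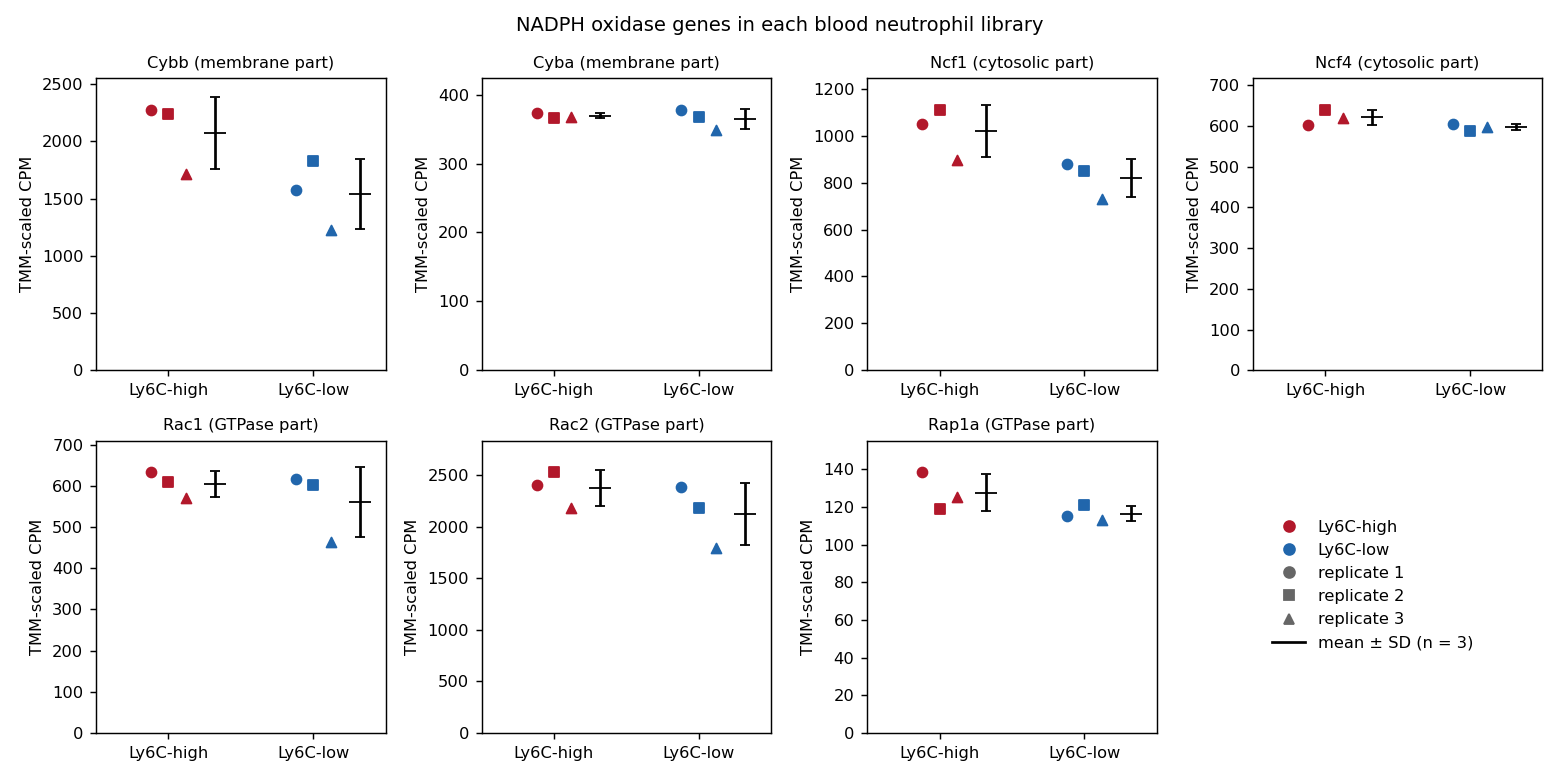
TMM-scaled CPM of each NADPH oxidase gene (vertical axes, from 0) in the 3 Ly6C-high and 3 Ly6C-low libraries, with mean and SD beside the points and replicates by symbol. Ncf1 is the one gene with no overlap between the groups (896.4 CPM and above in Ly6C-high, 880.2 CPM and below in Ly6C-low libraries), and replicate 3 is the lowest of its group for Cybb, Ncf1, Rac1 and Rac2.

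Among the GTPases, no member separated the groups. Rac2, on chromosome 15, measured 2409.7, 2530.1 and 2185.7 CPM in Ly6C-high replicates 1, 2 and 3, against 2393.1, 2181.1 and 1795.8 CPM in Ly6C-low replicates 1, 2 and 3. The groups overlapped, Ly6C-low replicate 3 was the lowest, and the log2 fold change was 0.16 (SE 0.12, 95% interval -0.11 to 0.43, edgeR adjusted p 0.587), or 0.06 without that library. Rac1, on chromosome 5, measured 632.8, 610.4 and 569.8 CPM in the Ly6C-high libraries, against 615.6, 603.1 and 464.2 CPM in the Ly6C-low libraries. Ly6C-low replicate 3 was again the lowest, and the log2 fold change of 0.11 (95% interval -0.15 to 0.37, edgeR adjusted p 0.717) turned to -0.01 without it. Rap1a, on chromosome 3, measured 138.4, 119.1 and 125.5 CPM in the Ly6C-high libraries, against 115.3, 121.0 and 113.3 CPM in the Ly6C-low libraries, with a log2 fold change of 0.13 (95% interval -0.06 to 0.33, edgeR adjusted p 0.539).

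Rac2 exceeded Rac1 in every library. Its TPM was 2.45, 2.77 and 2.42 times that of Rac1 in Ly6C-high replicates 1, 2 and 3, against 2.32, 2.24 and 2.31 times in Ly6C-low replicates 1, 2 and 3. The Ly6C-high ratios lay above the Ly6C-low ratios, but with counts set over the main transcripts' lengths the ratios were 2.84, 3.09 and 2.86 (Ly6C-high) against 2.90, 2.69 and 2.88 (Ly6C-low), and the groups overlapped.

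The coding sequences of Rac1 and Rac2 are each 579 bases long in their standard forms and 77.0% identical, and the transcripts have 0 words of 31 bases in common. Their ends are shown because the last 63 bases, which encode the variable tail before the lipid anchor and the stop codon, differ more than the coding sequence as a whole, at 55.6% identity. Capitals mark the 28 bases that differ, 5′ to 3′ on the minus strand in build GRCm38.
Rac1 end, chr5:143506975-143507037: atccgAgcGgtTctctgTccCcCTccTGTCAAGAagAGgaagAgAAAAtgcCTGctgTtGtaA
Rac2 end, chr15:78561908-78561970: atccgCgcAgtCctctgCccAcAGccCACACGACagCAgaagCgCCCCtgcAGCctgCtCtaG

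Rac1 also has a longer coding form, known as Rac1b, with an extra exon of 57 bases after coding base 225. The exon is shown because the annotated transcript that drew most Rac1 reads contains it. Its bases are in capitals, between the last and first 15 bases of the flanking exons.
Rac1 extra exon, minus strand of chr5:143509597-143509653 (GRCm38) for the capitals: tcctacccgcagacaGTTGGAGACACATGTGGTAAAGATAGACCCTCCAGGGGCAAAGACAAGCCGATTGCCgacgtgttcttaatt

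The transcript with the exon held 74.5% to 79.0% of the Rac1 counts. Set against the 2 annotated transcripts with the junction that skips it, it held 43.4% to 47.8% of their joint TPM in the Ly6C-high and 41.6% to 44.0% in the Ly6C-low libraries. These shares do not measure use of the exon, because the 3 transcripts also differ elsewhere. The one with the exon has 1493 bases after its coding sequence, the standard coding form has 3341, and the 585-base transcript has no annotated coding sequence. Rac1 overlaps Daglb, on the opposite strand, over 2309 bases, and shares 50.7% of its 31-base words with it. Daglb was listed at 597 to 955 counts and 7.72 to 11.9 TPM, against 8752 to 12334 counts for Rac1, with the same limit on strand.

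Rap1a shared its reads among 4 annotated transcripts, the main one with 44.4% to 49.1% of the counts. It shares 11.8% of its 31-base words with the pseudogene Gm9392, listed at 0 to 0.982 TPM, and 0 words with its paralog Rap1b. Rap1b was the more abundant of the Rap1 pair in every library, at 395.9 to 458.9 TPM, against 114.2 to 130.7 TPM for Rap1a.

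Summed by part, the genes made up similar shares of the members' TPM in both groups. The membrane part summed to 1254.8 ± 78.5 TPM (Ly6C-high) and 1204.3 ± 99.5 TPM (Ly6C-low). The cytosolic part summed to 1029.3 ± 49.8 TPM (Ly6C-high) and 998.3 ± 11.9 TPM (Ly6C-low), and the GTPase part to 1932.9 ± 128.4 TPM (Ly6C-high) and 1839.2 ± 191.4 TPM (Ly6C-low). The membrane part was 29.0% to 30.9% of the members' TPM in the Ly6C-high and 29.1% to 30.8% in the Ly6C-low libraries, and its ratio to the cytosolic part averaged 1.22 ± 0.07 (Ly6C-high) and 1.21 ± 0.11 (Ly6C-low). The ratio of the group means was 1.04 for the membrane, 1.03 for the cytosolic and 1.05 for the GTPase part in TPM. In TMM-scaled CPM, where long transcripts weigh more and the median gene lies at 1.00 and not at 0.93, it was 1.28, 1.16 and 1.11 in the same order. Most of the membrane sum in CPM is Cybb, which has the longest main transcript, at 4752 bases, and on that scale the cytosolic part was the one whose groups did not overlap. With counts set over the main transcripts' lengths, the GTPase part averaged 1226.4 TPM (Ly6C-high) and 1183.3 TPM (Ly6C-low). The membrane part averaged 1223.6 TPM (Ly6C-high) and 1165.5 TPM (Ly6C-low), so the large lead of the GTPase part in summed TPM depended on how length was counted.

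**Figure D4:**
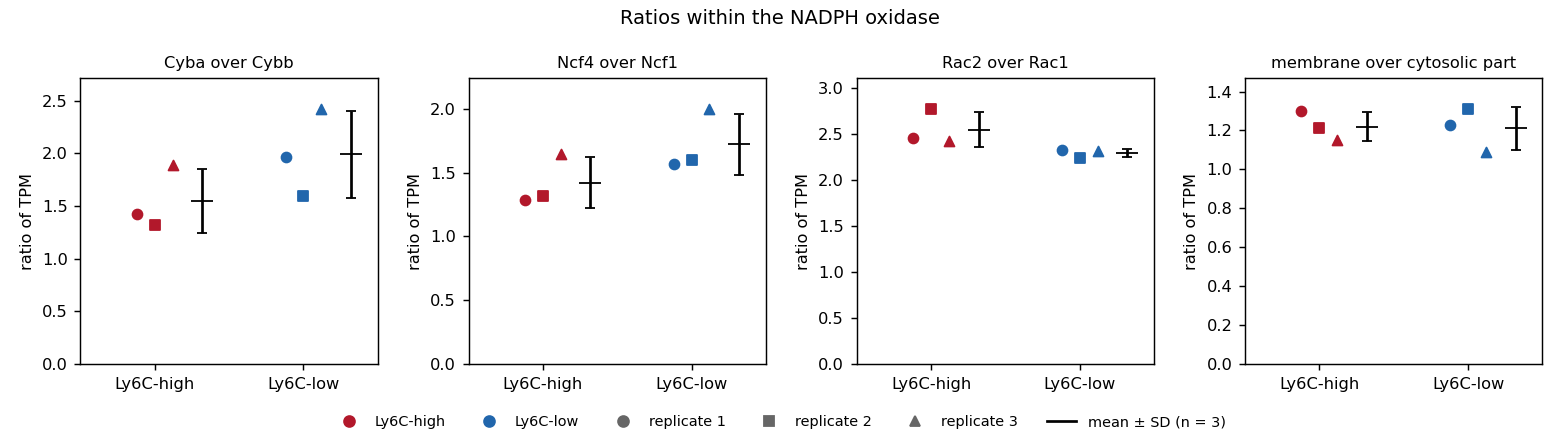
Ratios of TPM within the NADPH oxidase (vertical axes, from 0) in the 3 Ly6C-high and 3 Ly6C-low libraries, with mean and SD beside the points and replicates by symbol. The ratios of Cyba to Cybb and of Ncf4 to Ncf1 are highest in Ly6C-low replicate 3, at 2.42 and 2.00, and the membrane to cytosolic ratio overlaps between the groups.

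The members also differed in how they varied from library to library. Across the 6 libraries Cybb and Ncf1 ran together in log2 CPM (Pearson's r = 0.95), as did Rac1 and Rac2 (0.93) and Rac1 and Cyba (0.93). For Ncf4, r with the others lay between 0.02 (Rap1a) and 0.67 (Ncf1). These values describe 6 libraries that differ in group and in composition, and the same libraries give all of them. The 5 genes most like Cybb among 6959 protein-coding genes with at least 5 CPM were Polr1a (r = 0.993), which encodes the large subunit of RNA polymerase I, Tnks2 (0.993), a tankyrase, Vps26a (0.992), of the retromer, Clint1 (0.990), a clathrin adaptor, and Zfp426 (0.990), a zinc finger gene. Their log2 fold changes lay between 0.08 and 0.37, smaller than that of Cybb, and Ncf1 ranked 124th.

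Around the oxidase, 67 genes in 7 lists were examined, of which 52 were abundant enough to test. With edgeR 0 of the 52 passed in either direction (0.0351% of all genes did), and DESeq2 and limma voom also called 0. Before adjustment 7 of the 52 had a p under 0.05, all higher in the Ly6C-high libraries, where 6.92% of all genes were higher and 14.3% differed in either direction. The median log2 fold change was 0.11 and 41 of the 52 lay above 0, against -0.004 and 49.2% for all genes tested.

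The regulators of Rac had a median of 0.15 over 12 genes tested, 11 of them above 0. Arhgdib, the inhibitor that holds Rac in the cytosol of blood cells, was the most abundant, at 2471.2 ± 133.9 TPM (Ly6C-high) and 2309.5 ± 160.4 TPM (Ly6C-low), with a log2 fold change of 0.19 (edgeR adjusted p 0.442). The Rac exchange factors Tiam2 and Dock5 had the smallest p of the list, with log2 fold changes of 0.21 (SE 0.09) and 0.20 (SE 0.10). Of the Rap1 genes 8 were tested, with a median of 0.10, and 0 lay below 0. Rapgef6, a Rap exchange factor, measured 194.4 ± 2.16 CPM (Ly6C-high) and 163.7 ± 11.1 CPM (Ly6C-low), and its log2 fold change of 0.25 (SE 0.09) had the smallest adjusted p of all lists (edgeR adjusted p 0.254). The values were 0.25 for Sipa1l1, a GTPase-activating protein, which switches Rap off, and 0.10 for Rap1b.

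Among kinases that phosphorylate the cytosolic subunits, 9 were tested with a median of 0.22, the highest of the lists. Pak1, a kinase activated by Rac, measured 79.4 ± 2.99 CPM (Ly6C-high) and 64.2 ± 13.2 CPM (Ly6C-low), for a log2 fold change of 0.31 (SE 0.14), and Mapk14, the p38 kinase, had one of 0.25 (SE 0.12). Mapk3, the most abundant kinase of the list, had one of 0.22. Of the lipid-signalling genes, whose products make or release the lipids that draw the cytosolic subunits to membranes, 10 were tested with a median of 0.07. Pla2g4a, the cytosolic phospholipase A2, measured 18.1 ± 1.67 CPM (Ly6C-high) and 14.2 ± 1.51 CPM (Ly6C-low), for a log2 fold change of 0.35 (SE 0.13, edgeR adjusted p 0.267). The values were 0.15 for Pik3cb and 0.06 for Pik3cd, both catalytic subunits of phosphoinositide 3-kinase.

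The 4 genes of maturation and charge balance had a median of -0.05, with 3 below 0. Cybc1, the chaperone needed for the flavocytochrome to mature, averaged 66.3 ± 2.82 TPM (Ly6C-high) and 74.3 ± 2.35 TPM (Ly6C-low). On that scale every Ly6C-high library lay below every Ly6C-low one, as in 18.1% of all genes. On the TMM scale Cybc1 had a log2 fold change of -0.06 (95% interval -0.25 to 0.13). Hvcn1, the proton channel that balances the charge of the oxidase, was far less abundant, at 4.50 to 7.24 TPM, with a log2 fold change of 0.25 (95% interval -0.08 to 0.58). The transcription factors linked to oxidase genes had a median of 0.11 over 8 tested, 6 of them above 0. Among them Spi1, which encodes PU.1, was the most abundant, at 764.3 to 878.0 TPM, with a log2 fold change of 0.11. Cebpa and Cebpe, factors of earlier granulocyte stages, had the smallest p of that list, with log2 fold changes of 0.60 (SE 0.22) and 0.31 (SE 0.14). Irf8, a factor of the monocyte lineage, was listed at 0.314 TPM or less.

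Other members of the NADPH oxidase family were nearly absent. Nox4 was the 1 gene of 10 in that list with enough counts to test, at 0.280 to 0.997 TPM and a log2 fold change of -0.25 (SE 0.48). Nox1 had 0.304 TPM or less and Rac3, the remaining Rac paralog, 0.112 TPM or less.

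**Figure D5:**
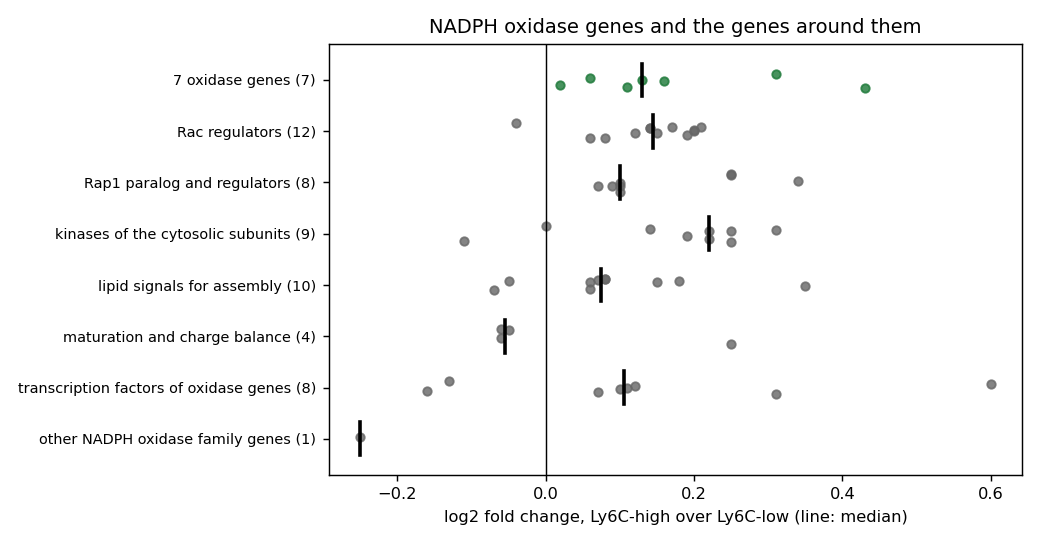
Log2 fold changes, Ly6C-high over Ly6C-low (horizontal axis), of the 7 NADPH oxidase genes (green) and of the tested genes in 7 lists around them (grey), with the number tested in brackets and vertical bars at the medians. The median is 0.13 for the oxidase genes and runs from -0.25 to 0.22 over the lists.

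Markers of eosinophils, monocytes and basophils had small sums that differed between the groups. Of these cells, eosinophils and monocytes also make the oxidase. The 8 eosinophil markers summed to 18.9 to 23.8 TPM in the Ly6C-high and 37.9 to 42.2 TPM in the Ly6C-low libraries, with Epx, the eosinophil peroxidase, at 0.0233 TPM or less. Siglecf alone was 13.57 to 16.51 TPM of it in the Ly6C-high and 20.13 to 24.97 TPM in the Ly6C-low libraries. Ccr3, Ear1, Ear6 and Prg2 were also lower in every Ly6C-high library, while the groups overlapped for Ear2, Il5ra and Epx. The 8 basophil and mast cell markers summed to 20.4 to 36.1 TPM (Ly6C-high) and 48.2 to 65.4 TPM (Ly6C-low). Of that sum Kit alone was 32.9, 16.1 and 23.4 TPM in Ly6C-high replicates 1, 2 and 3, against 57.9, 32.4 and 28.7 TPM in Ly6C-low replicates 1, 2 and 3, and its groups overlapped. The 8 monocyte markers summed to 101.7 to 107.8 TPM (Ly6C-high) and 113.2 to 130.4 TPM (Ly6C-low), of which Csf1r alone was 95.2 to 125.0 TPM. The 5 monocyte markers tested had a median log2 fold change of 0.68, opposite in sign to the sum, and edgeR called 0 of them. All 3 sums were lower in every Ly6C-high library, while Cybb and Ncf1 lay higher there. The part of such cells in the values of the oxidase genes was not tested.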

How the data were processed

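Ly6G+ blood neutrophils were sorted by Ly6C and their oligo-dT-captured RNA was sequenced as single-end reads after a Kapa mRNA library preparation, per the labels' protocols and the series' design text. The authors quantified transcripts with kallisto and named build GRCm39, per the submitters' processing notes; version, index and strand setting are not given in the sources read here. The deposited tables gave estimated counts and TPM per transcript, with length and effective length, per the file headers. Transcripts (99.04% matched) were assigned to genes with GENCODE M21 (GRCm38), and both units were summed per gene. Rounded estimated counts entered a robust quasi-likelihood F test (R 4.3.3, edgeR 4.0.16) after filterByExpr and TMM, with Benjamini-Hochberg adjustment over 11406 genes; edgeR was also tested on simulated counts. The prior count for log2 CPM was 2. Alternatives used DESeq2 1.42.0 and limma 3.58.1. No 2 libraries were near-copies (chi-square per gene 14.3 or more). The members and lists were chosen with earlier results of these data known. Named genes were the members, in each list the 2 with the smallest p and the most abundant, Hvcn1, Cybc1, Spi1, Rap1b and the 5 most like Cybb; Irf8, Nox1, Rac3 and the markers named were added after their values were seen. Some genes of the complex are not reported here.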

Additional observations from a re-analysis of the deposited data

How the results depend on the processing

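With scaling by library size alone, the median gene shifted to a log2 fold change of -0.11, Cyba turned to -0.09 and Ncf4 to -0.05. With 1 library left out, Cyba ranged from -0.01 to 0.04 and Rac1 from -0.01 to 0.18, both negative without Ly6C-low replicate 3 alone. Cybb, Ncf1, Rac2 and Rap1a changed sign under none of their 18 alternatives.

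Deviations from the group means correlated at 0.24, -0.04 and 0.24 for same-numbered libraries and at -0.31 to 0.11 for the others. Replicates 1 and 3 correlated best with their own number and replicate 2 did not, so the numbers were not taken to pair the libraries. With the replicate block 61 genes passed, 0 members among them, and Cybb had a log2 fold change of 0.44 (edgeR adjusted p 0.0616). Blocks without both libraries of replicate 1, 2 or 3, added after the data were seen, called 7, 25 and 389 genes. The block without replicate 3 called 2 members, Cybb (adjusted p 0.00179) and Ncf1 (0.0357), both higher, and 1 listed gene, Cebpb, which was lower (log2 fold change -0.35), while Cyba was -0.01.

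Of all genes, 4 passed with edgeR, 8 with library size alone, 439 with no filter, 106 with DESeq2, 2 with length-scaled TPM, and 2 to 22 with 1 library left out, the 22 without Ly6C-low replicate 3. With no filter 1 member passed, Cybb (adjusted p 0.0182), and 1 listed gene, Cebpa. In TMM-scaled CPM the ratio of the membrane part was 1.28 and that of the cytosolic part 1.16.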
